A study of Rattus norvegicus with 16 samples.

Results

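Nptx2, Resp18, Parm1, Magee1, Hivep2 and Ppl are 6 genes with large differences between diets in the livers of obese Zucker rats and no well-known role in liver. They were chosen by symbol, with the diet differences of these same livers in view, so their levels in the 2 diets are given as a description without a test. They are 6 of the 9645 genes in the deposited table, and all 6 are among the 8004 genes tested. The rats were male obese Zucker rats, obese through an inherited defect of the leptin receptor, bought at 6 weeks of age and fed from 1 week later. For 16 weeks, 8 rats ate a diet with soy protein isolate (SPI) high in isoflavones and 8 ate a diet with casein (CAS), and 1 RNA library was made per rat. The libraries are numbered SPI 1 to SPI 8 and CAS 1 to CAS 8. No lean rats were compared, so the diets were contrasted in 1 obese model only. The labels give separate samples of each diet, and p-values measure the spread between these rats.

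The 6 genes are known for roles outside the hepatocyte. Nptx2 (neuronal pentraxin 2) encodes a secreted pentraxin that gathers AMPA-type glutamate receptors at synapses, and it belongs to the protein family of the liver products C-reactive protein and serum amyloid P. Resp18 encodes a protein of the endoplasmic reticulum and secretory granules of rat endocrine and neuroendocrine cells. Parm1 encodes a mucin-like membrane glycoprotein first described in rat prostate, where androgen regulates it. Magee1 encodes a MAGE family protein that binds alpha-dystrobrevin, a part of the dystrophin complex. Hivep2 encodes a large zinc finger transcription factor that binds sites like those of NF-kB and that works with SMAD proteins in mouse adipocytes. Ppl encodes periplakin, a plakin that ties desmosomes and the cell membrane to intermediate filaments.

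The libraries held 14901365 to 21517766 reads in SPI livers and 17602306 to 21632979 reads in CAS livers. Values are normalized counts, which are reads divided by 1 size factor per library. The hepatocyte markers were abundant in every library, with a summed normalized count of 4684850 to 6775930 in SPI livers and 4372630 to 6510730 in CAS livers for the 6 of 10 listed markers in the table. On the first principal component of the genes tested, which carried 19.1% of the variance, SPI livers lay between 10.4 and 26.7. CAS 4, CAS 6 and CAS 7 lay between 1.18 and 2.73 and the other 5 CAS livers between -41.3 and -26.1, so those 3 libraries stood apart from their own group. Results that rest on them are given with and without them. Since whole liver was sequenced, fewer cells of a type and less RNA per cell cannot be told apart.

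Promoter sequences are shown for the 2 genes that were higher in SPI livers and for the gene with the largest ratio between diets, so that the genes on either side of the diet difference can be compared by their starts. Each is the 250 bases before the start of the gene in RefSeq, 5′ to 3′ on the strand of the gene, in build GRCr8, which is not the build of the deposited counts. Nptx2 lies at chr12:15162046-15162295 on the minus strand, Resp18 at chr9:84220187-84220436 on the minus strand and Parm1 at chr14:16861571-16861820 on the minus strand. Capitals mark CCAAT and GGGCGG on either strand, where the reverse strand reads ATTGG and CCGCCC.
Nptx2: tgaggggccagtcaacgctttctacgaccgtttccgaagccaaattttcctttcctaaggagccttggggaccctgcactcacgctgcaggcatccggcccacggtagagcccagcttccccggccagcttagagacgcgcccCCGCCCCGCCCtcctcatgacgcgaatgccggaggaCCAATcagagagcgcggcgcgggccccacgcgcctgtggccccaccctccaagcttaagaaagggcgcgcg
Resp18: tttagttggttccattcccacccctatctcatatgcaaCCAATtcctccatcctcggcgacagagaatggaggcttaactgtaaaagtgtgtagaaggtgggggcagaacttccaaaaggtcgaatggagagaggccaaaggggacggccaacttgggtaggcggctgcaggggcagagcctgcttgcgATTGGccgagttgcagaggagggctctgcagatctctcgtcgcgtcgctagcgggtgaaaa
Parm1: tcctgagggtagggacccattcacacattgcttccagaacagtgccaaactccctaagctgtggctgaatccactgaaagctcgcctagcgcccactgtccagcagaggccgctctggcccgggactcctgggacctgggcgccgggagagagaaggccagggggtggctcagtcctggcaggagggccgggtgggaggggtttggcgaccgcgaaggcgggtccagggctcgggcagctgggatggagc
CCAAT stood once in the Nptx2 window, 71 bases before the start, and 2 times in the Resp18 window, at 212 and 61 bases before it. It was in none of the windows of the 4 genes that were lower in SPI livers, and 34.0% of 33469 RefSeq promoter windows of this length hold it. GGGCGG was in the windows of Nptx2, where its 2 matches overlap by 1 base, Magee1, Hivep2 and Ppl, and 30.5% of all windows hold it. None of the 6 windows held TATAAA (12.9% of all windows), the NF-kB (kappa B) pattern (16.4%), AGGTCA (14.1%), CACGTG (5.59%) or TGACGTCA (1.59%). Base composition ran from 55.2% G and C for Resp18 to 77.2% for Hivep2, against a median of 51.2% over all windows. These matches describe letters in a window and say nothing on which factor binds.

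Nptx2 and Resp18 were the 2 genes with higher levels in SPI livers. The lowest, median and highest normalized counts of Nptx2 were 129, 213 and 359 in SPI livers, against 15.5, 21.7 and 80.5 in CAS livers. All 8 SPI livers lay above all 8 CAS livers, and the nearest pair, SPI 2 over CAS 4, was 1.61-fold apart. The mean was 229 ± 95.5 in SPI livers and 34.9 ± 24.4 in CAS livers (SD, n = 8 each), a 6.58-fold ratio and a log2 difference of 2.88 (SE 0.36) after quantile normalization. The gene rested on 105 to 329 reads in SPI libraries and on 18 to 81 reads in CAS libraries.

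Resp18, the endocrine granule protein, was steadier within each diet. Its lowest, median and highest normalized counts were 105, 139.8 and 162 in SPI livers, against 35.8, 53.0 and 85.4 in CAS livers. The diets did not overlap, though SPI 4 and CAS 7 were only 1.23-fold apart. The mean was 135 ± 22.2 in SPI livers and 55.3 ± 14.9 in CAS livers (SD, n = 8 each), a 2.45-fold ratio and a log2 difference of 1.34 (SE 0.18). Of the 6 genes it had the smallest ratio between diets and the smallest SD of log2 values in SPI livers, at 0.24. In CAS livers it was also the smallest, at 0.39, but without CAS 4, CAS 6 and CAS 7 it was 0.26 and that of Hivep2 was 0.25.

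Parm1, the mucin-like glycoprotein, was close to 0 in most SPI livers. It had 0 reads in SPI 2 and SPI 8, 1 to 11 reads in 5 other SPI livers and 35 reads in SPI 7, against 62 to 413 reads in CAS livers. The lowest, median and highest normalized counts were 0, 4.67 and 35.7 in SPI livers, against 63.1, 218 and 341 in CAS livers. The diets did not overlap, with CAS 7 lying 1.76-fold above SPI 7. The mean was 8.38 ± 12.02 in SPI livers and 208 ± 109.1 in CAS livers (SD, n = 8 each), 24.9-fold lower in SPI livers, and the log2 difference was -5.09 (SE 0.65). Without SPI 7 the SPI mean was 4.48 ± 5.11 (SD, n = 7) and Parm1 was 46.6-fold lower. Only 2 SPI libraries reached the filter value of 10, so Parm1 entered the test through its level in CAS livers. At these read numbers the log2 scale is coarse, and quantile normalization placed the 2 livers with 0 reads at log2 values of 0.43 (SPI 2) and 1.13 (SPI 8).

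Magee1, the dystrobrevin-binding protein, had 12 to 31 reads in SPI livers and 42 to 254 reads in CAS livers. Its lowest, median and highest normalized counts were 12.8, 28.5 and 31.95 in SPI livers, against 41.7, 81.6 and 239 in CAS livers. The diets did not overlap, but CAS 4 and SPI 1 were only 1.31-fold apart. The mean was 24.7 ± 7.43 in SPI livers and 96.4 ± 64.7 in CAS livers (SD, n = 8 each), 3.90-fold lower in SPI livers, with a log2 difference of -1.72 (SE 0.32). CAS 3 alone, at 239, was far above the next CAS liver, at 117.

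Hivep2 and Ppl were lower in SPI livers with a small overlap between diets. The zinc finger factor Hivep2 had lowest, median and highest normalized counts of 9.62, 37.0 and 77.6 in SPI livers, against 54.9, 141 and 207.5 in CAS livers. CAS 7, at 54.9, lay below SPI 6 (56.3) and SPI 7 (77.6), and every other CAS liver lay above every SPI liver. The mean was 40.2 ± 20.1 in SPI livers and 136 ± 53.5 in CAS livers (SD, n = 8 each), 3.38-fold lower in SPI livers, with a log2 difference of -1.74 (SE 0.31).

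The plakin gene Ppl had lowest, median and highest normalized counts of 44.5, 64.7 and 154 in SPI livers, against 106.8, 267 and 661 in CAS livers. Again CAS 7 was the liver that crossed, at 106.8 against 139.9 in SPI 7 and 154 in SPI 4. The mean was 79.4 ± 43.1 in SPI livers and 308 ± 175 in CAS livers (SD, n = 8 each), 3.88-fold lower in SPI livers, and the log2 difference was -1.88 (SE 0.35).

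**Figure D1:**
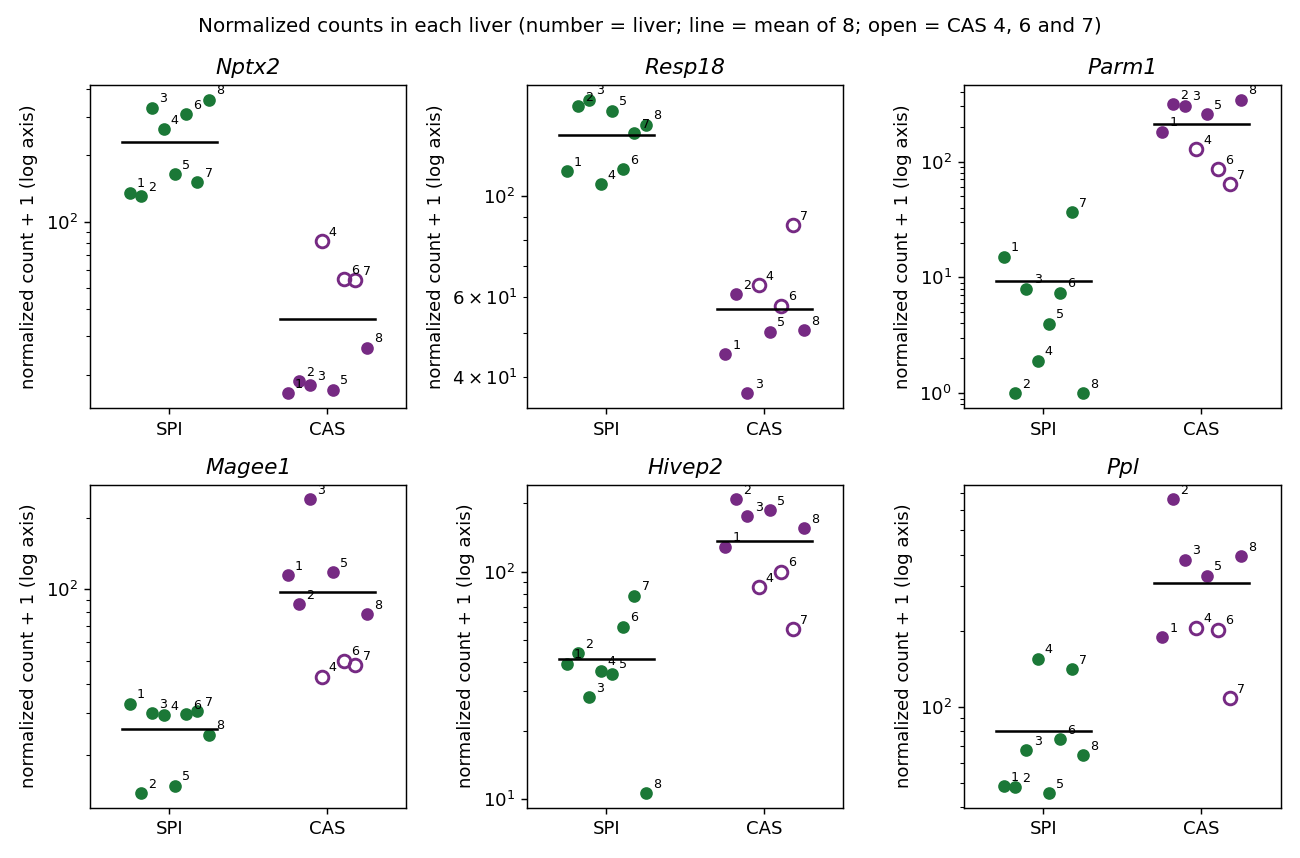
Normalized counts of the 6 genes in each liver, SPI on the left and CAS on the right of each panel, on a log axis of normalized count + 1. Points are livers with their numbers, lines are means of 8, and open points are CAS 4, CAS 6 and CAS 7. The diets do not overlap for Nptx2, Resp18, Parm1 and Magee1, while CAS 7 crosses into the SPI livers for Hivep2 and Ppl.

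The diets separated fully for 4 of the 6 genes. Over all 8004 genes tested, the groups did not overlap in 0.900% (0.350% with SPI above and 0.550% with SPI below). After quantile normalization the share was 0.825% (0.237% above and 0.587% below). The 6 genes were chosen on this same contrast, so nothing is read from the count. For Hivep2 and for Ppl, SPI was lower in 62 of the 64 pairs of an SPI and a CAS liver. Without CAS 7 the diets did not overlap for any of the 6 genes, and leaving out any other single liver left the count at 4. Just inside full separation was Resp18, with its nearest livers 1.23-fold apart, and just outside were Hivep2 and Ppl, where the lowest CAS liver was at 0.708 and 0.694 of the highest SPI liver. In the quantitative PCR that the paper lists, Nptx2 was higher and Hivep2 lower in SPI livers. There the mean of Resp18 did not differ between diets and that of Magee1 barely did, so their full separation rests on sequencing only. Parm1 and Ppl were not among the PCR genes.

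The CAS livers that stood apart on the first principal component were also the CAS livers nearest to the SPI livers for 4 of the 6 genes. Nptx2 had 80.5, 53.6 and 52.9 normalized counts in CAS 4, CAS 6 and CAS 7, against 15.5 to 25.6 in the other 5 CAS livers. Parm1 had 127, 84.5 and 63.1 in the same 3 livers, against 181 to 341 in the others. Magee1 had 41.7, 49.1 and 46.8, against 77.7 to 239, and Hivep2 had 84.4, 99.1 and 54.9, against 128 to 207.5. These 3 livers were the 3 nearest to SPI in 7.22% of the genes tested, and in 31.8% of the 390 genes past the diet test. They were not the 3 nearest for Resp18, where CAS 2 took the place of CAS 6, nor for Ppl, where CAS 1 took the place of CAS 4. After quantile normalization Resp18 joined the others, making 5 of the 6 genes.

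Without CAS 4, CAS 6 and CAS 7 the ratios between diets were larger. Nptx2 averaged 229 ± 95.5 in SPI livers (n = 8) and 18.4 ± 4.13 in the other 5 CAS livers (SD), a 12.5-fold ratio in place of 6.58. Parm1 was then 33.2-fold lower in SPI livers, Magee1 5.13-fold, Ppl 4.92-fold and Hivep2 4.23-fold, and Resp18 was 2.84-fold higher. All 6 genes kept their direction, and none overlapped between SPI livers and these 5 CAS livers. CAS 7 was the only CAS liver that crossed, so the lack of overlap follows from leaving it out. The larger ratios likewise follow from leaving out CAS livers near the SPI livers, so nothing is read from either. The single acute phase genes given here did not all move the same way across this split. Summed over 10 of 11 listed genes, they came to 519481 to 837691 normalized counts in SPI livers, 527899 to 565579 in CAS 4, CAS 6 and CAS 7, and 583778 to 712401 in the other CAS livers. Most of the sum came from Hp and Itih4. The CAS ranges did not overlap each other, and the SPI range covered both. Lbp, the lipopolysaccharide-binding protein made by hepatocytes and a member of that list named after its values were seen, had 1942 to 3387 in SPI livers, 2476 to 2572 in the 3 livers and 5346 to 9302 in the other 5. It was lower in SPI livers (log2 difference -1.23, adjusted p = 0.0429 from limma). Of the other 9 genes of the list 1 passed the diet test, the fibrinogen chain gene Fgg, which was higher in SPI livers (0.30, adjusted p = 0.0367 from limma). Fgg had 4398 to 5825 in SPI livers, 3686 to 4637 in the 3 CAS livers and 3108 to 4323 in the other 5. Fga, another fibrinogen chain gene named after its values were seen, did not pass (0.27, adjusted p = 0.142 from limma). It had 2635 to 4010 in SPI livers, 2735 to 2914 in the 3 CAS livers and 1897 to 2706 in the other 5, opposite to Lbp. Lcn2, also of the list, was named after its values were seen. It had 50.0 to 370 in SPI livers and 110 to 2147 in CAS livers, and it did not pass. The remaining genes of the list are not given by split. The part of the acute phase genes in the split was not tested.

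**Figure D2:**
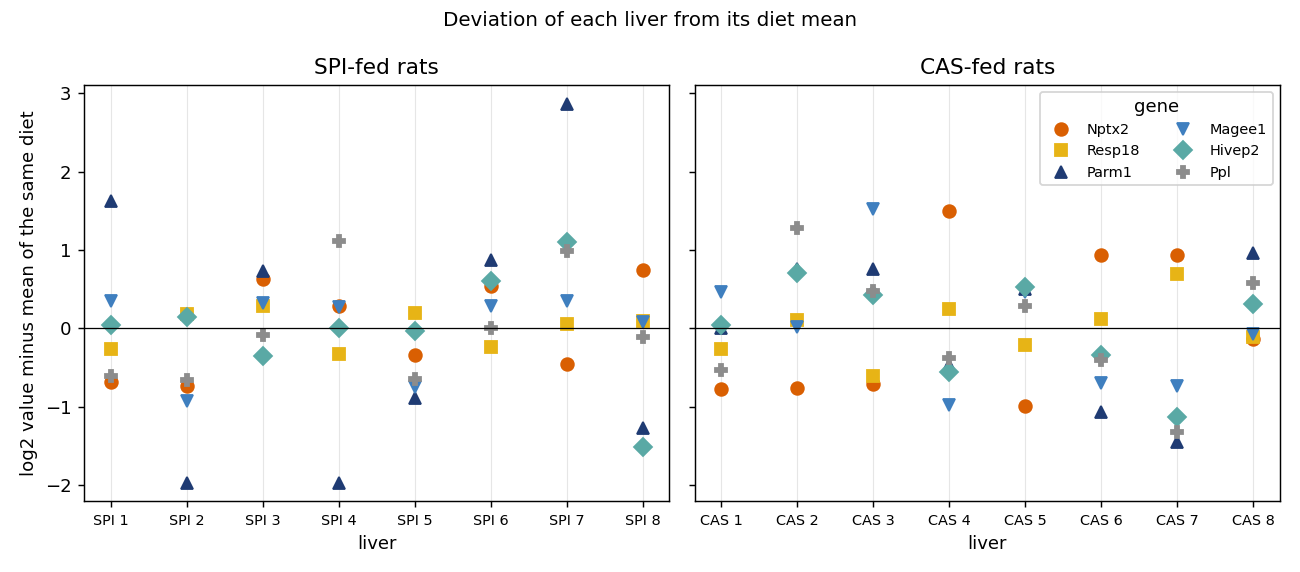
Deviation of each liver from the mean of its own diet, in log2 units, for the 6 genes, with SPI livers left of CAS livers. In CAS 4, CAS 6 and CAS 7 the value of Nptx2 lies above the CAS mean and those of Parm1, Magee1 and Hivep2 lie below it.

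Covariation within a diet was not used to choose the genes, and it was tested with the 15 pairs of the 6 genes. In the 8 SPI livers, 0 of 15 pairs passed an adjusted p under 0.05 in the exact permutation test, for Pearson's r or Spearman's rho, and at an unadjusted p under 0.05 the counts were 0 and 1. The r values ran from -0.52 to 0.60 with a median size of 0.32. The 4 genes lower in SPI livers had positive r in each of their 6 pairs, between 0.08 and 0.60. Pairs of genes that differed in the same direction between diets had positive r in 6 of 7 cases, and pairs in opposite directions had negative r in 6 of 8 cases.

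Parm1 with Magee1 had r = 0.60 (exact permutation p = 0.133, adjusted p = 0.646) and rho = 0.83 (exact permutation p = 0.0172, adjusted p = 0.257). SPI 7 and, in a tie, SPI 2 and SPI 4 were farthest from the median of Parm1, and r was 0.82 without SPI 4 and SPI 7 and 0.39 without SPI 2 and SPI 7. With only 2 SPI livers at 10 or more, the Parm1 order rests on values under the filter, partly set by normalization, so nothing is read from its pairs in SPI livers. Among the 10 pairs without Parm1, r was positive in 3 of 4 in the same direction and negative in 4 of 6 in opposite directions, which was counted after seeing the data. Magee1 with Ppl had r = 0.58 (exact permutation p = 0.0856, adjusted p = 0.646) and rho = 0.48 (exact permutation p = 0.243, adjusted p = 0.675), and r was 0.12 without SPI 2 and SPI 5, so that value rests on those livers. Nptx2 and Resp18, both higher in SPI livers, had an r of -0.02. Nptx2 with Hivep2 had r = -0.51 and rho = -0.62 (adjusted exact permutation p = 0.646 and 0.675), and r was -0.28 without SPI 2 and SPI 8. A miss of the threshold with 8 livers does not show that these levels vary independently. SPI 7 held the highest Parm1 and Hivep2 and the second highest Ppl of its diet, while SPI 8 had no Parm1 reads, the lowest Hivep2 and the highest Nptx2.

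Over all 16 livers with the diet means removed, 4 of the 15 pairs passed an adjusted p under 0.05 in the permutation test, and 6 did at an unadjusted p under 0.05. They were Nptx2 with Hivep2, Resp18 with Magee1, Parm1 with Magee1 and Parm1 with Hivep2. The pairs with Parm1 lean on its SPI values of few reads, where its log2 SD was 1.78, against 0.91 in CAS livers. The share of passing pairs over all genes was not taken, so the count is not read as particular to these genes. None of the 15 passed by Spearman's rho, where 7 had an unadjusted p under 0.05. Because CAS livers fell into separate clusters, no r over CAS livers is given. In CAS livers alone, 6 pairs passed by Pearson's r and 2 by Spearman's rho, and for the same reason nothing is read from them. Without CAS 4, CAS 6 and CAS 7, 0 of 15 pairs passed over the other 13 livers, 1 did at an unadjusted p under 0.05, and r ran from -0.69 to 0.54. The count was also decided by single libraries: 0 pairs passed without CAS 3 or without CAS 5, 1 without CAS 2, 2 without SPI 1, SPI 6, SPI 7, CAS 1, CAS 4, CAS 6 or CAS 7, and 7 without SPI 4. Blocked on replicate number, 9 pairs passed, by the exact permutation test of the differences between same-numbered livers. These differences include CAS 4, CAS 6 and CAS 7 and so carry the CAS split, and nothing is read from this count.

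**Figure D3:**
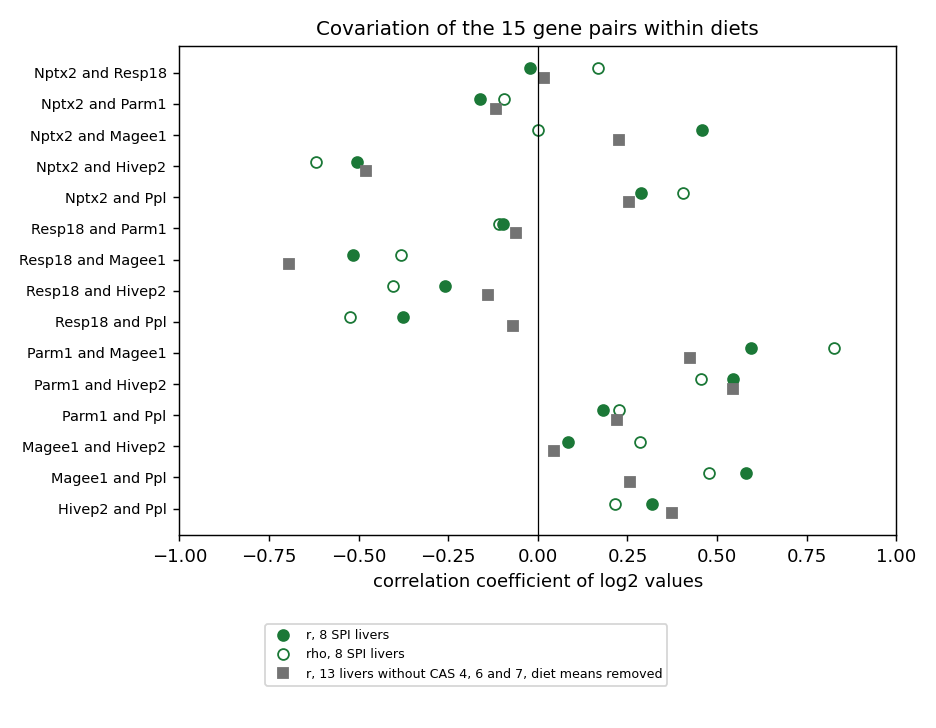
Pearson's r of log2 values for the 15 pairs of the 6 genes, in the 8 SPI livers and in the 13 livers without CAS 4, CAS 6 and CAS 7 with the diet means removed. Circles are SPI livers (filled r, open rho) and squares the 13 livers, with the coefficient on the horizontal axis. In the SPI livers r spans -0.52 to 0.60 and in the 13 livers -0.69 to 0.54.

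For each gene the 3 genes closest to it within diets were listed by the size of r over the 16 livers after the diet means were removed, among 5583 genes with a mean of at least 50. These r values are a description, share all libraries and include the CAS split, so r in the 8 SPI livers is given beside them. The 8 SPI livers are among the 16 used for the choice, so r there is not a separate check. Nptx2 ran opposite to Col4a2 (r = -0.90, -0.88 in SPI livers) and Col4a1 (-0.87, -0.84), the chains of basement membrane collagen IV, and with Pradc1 (0.87, 0.80). Resp18 ran opposite to Plekho1 (-0.83, -0.59) and to Cyp3a62 (-0.80, -0.61), a cytochrome P450 whose family may share reads, and with Bscl2 (0.83, 0.72), the gene of the lipid droplet protein seipin. Parm1 ran with Psme3 (0.85, 0.85), a proteasome activator, and with Lepr (0.79, 0.78), the leptin receptor, and opposite to the glucuronosyltransferase Ugt2a3 (-0.81, -0.86). Parm1 had 0 to 35 reads in SPI libraries, and its order there is partly set by normalization. Nothing is therefore read from these r values of Parm1.

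Magee1 ran with Appl1 (0.84, 0.61), an adaptor of adiponectin receptor signalling, and with complement C5 (0.83, 0.49), and opposite to the mitochondrial deacetylase Sirt3 (-0.82, -0.64). Hivep2 ran opposite to RGD1311745 (-0.90, -0.90) and with Cd93 (0.82, 0.82), an endothelial membrane protein, and Rras (0.82, 0.68), a small GTPase. Ppl ran opposite to the sterol carrier Scp2 (-0.88, -0.96), the locus LOC102554927 (-0.87, -0.83) and the mitochondrial ribosomal protein gene Mrpl57 (-0.86, -0.94). Of these 18 genes, 6 also passed the diet test: Pradc1 and Ugt2a3 were higher in SPI livers, and Cyp3a62, Lepr, Appl1 and Rras were lower. Of all 8004 genes tested, 4.87% passed in either direction. The 18 genes were picked by r values that include the CAS split, so nothing is read from this count. Ugt2a3 had a log2 difference of 0.73 (adjusted p = 0.000915 from limma) and Lepr one of -0.63 (adjusted p = 0.00648 from limma). The calls of Lepr and Appl1 ended without the libraries numbered 2 and 8 (adjusted p = 0.0814 and 0.0898 from limma). Scp2 passed on the values as deposited (adjusted p = 0.00681 from limma) but not after quantile normalization (adjusted p = 0.615 from limma). The call of Rras ended without SPI 3, SPI 8, CAS 1, CAS 2, CAS 3, CAS 5 or CAS 8 (adjusted p of 0.0520 to 0.0735 from limma) and when livers were blocked on replicate number (adjusted p = 0.0633 from limma). For Nptx2, Resp18 and Magee1 the size of r with each of the 3 genes was smaller in the SPI livers than over all 16.

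Relatives of the 6 genes by family, complex, cell structure or pathway were read from lists, with 35 genes tested. The lists were written with results of these data known, so the counts are a description and nothing is read from their size. None was higher and 6 were lower in SPI livers at an adjusted p under 0.05 from limma, where 1.97% of all 8004 genes tested were higher and 2.90% were lower (4.87% in either direction). Blocked on replicate number, the counts over all genes were 97 higher and 149 lower, in place of 158 and 232. All 6 belonged to 3 of the 6 lists, those of Magee1, Hivep2 and Ppl. The median log2 difference over all genes tested was 0.01.

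The pentraxins and synaptic organizers had 2 of 10 genes tested, both classical liver pentraxins, and neither passed. Crp, the C-reactive protein gene, had 111505 ± 9980 normalized counts in SPI livers and 88160 ± 14661 in CAS livers (SD, n = 8 each), with a log2 difference of 0.10 (adjusted p = 0.582 from limma). Apcs, the serum amyloid P gene, had a log2 difference of 0.15 (adjusted p = 0.412 from limma). On the values as deposited, without quantile normalization, both passed as higher in SPI livers, with adjusted p of 0.0289 for Crp and 0.0182 for Apcs from limma. The neuronal pentraxin receptor gene Nptxr and Ptx3 were under the filter, and 6 of the 10, the AMPA receptor genes among them, were not analysed here.

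The dense-core granule genes, relatives of Resp18, had 3 of 17 tested and none passed, with a median log2 difference of -0.11. Pcsk1, which encodes a prohormone convertase, was at 0.41 (adjusted p = 0.457 from limma), Cpe, the carboxypeptidase E gene, at -0.29 and Rab3a, a granule GTPase, at -0.11. Mucins and mucin-like proteins, relatives of Parm1, had 3 of 13 tested and none passed, with a median of -0.19. The sialomucin Cd164 was at -0.19 (adjusted p = 0.180 from limma), the leukocyte mucin Selplg at -0.65 (adjusted p = 0.248 from limma) and the endothelial mucin Emcn at 0.13. The MAGE and dystrobrevin list had 7 of 18 tested, a median of -0.24, and 1 gene that passed.

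That gene was Dag1, which encodes dystroglycan, the membrane core of the complex that holds dystrobrevin. Its lowest, median and highest normalized counts were 1174, 1284 and 1806 in SPI livers, against 1233, 2124 and 2649 in CAS livers. It fell by 0.67 on the log2 scale (SE 0.13, adjusted p = 0.00359 from limma), and SPI was lower in 58 of 64 liver pairs. Among the MAGE genes, Maged1 was at -0.30 (adjusted p = 0.100 from limma) and Mageh1 at -0.39 (adjusted p = 0.224 from limma).

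The list of HIVEP, BMP-SMAD and NF-kB genes had 10 of 22 tested, a median log2 difference of -0.31 and 1 gene that passed. Rela, the NF-kB subunit p65, had 588 ± 54.0 normalized counts in SPI livers and 751 ± 82.6 in CAS livers (SD, n = 8 each), a log2 difference of -0.35 (SE 0.09, adjusted p = 0.0255 from limma). The call ended without SPI 3, SPI 8, CAS 2 or CAS 3, with adjusted p up to 0.0581 from limma, and when livers were blocked on replicate number (adjusted p = 0.0879 from limma). Hivep1, the tested paralog of Hivep2, was at -0.23 (adjusted p = 0.397 from limma), and Id2, a BMP target, was at -0.41 (adjusted p = 0.196 from limma).

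**Figure D4:**
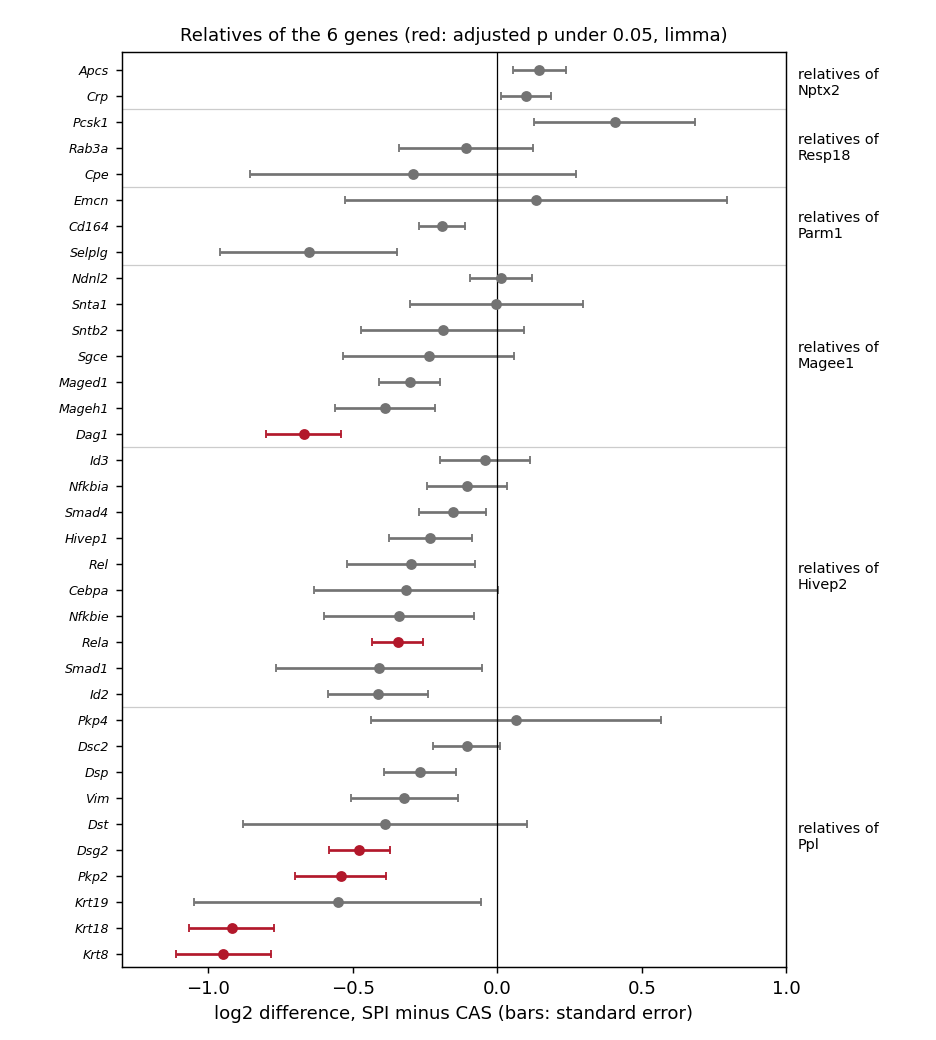
Log2 difference, SPI minus CAS, of the 35 relatives tested, by list, on the horizontal axis. Bars are standard errors. Red points passed an adjusted p under 0.05 from limma and grey points did not, and the 6 red points lie below 0.

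The plakin, desmosome and keratin list had the most genes that passed, with 4 of 10 tested lower in SPI livers, none higher and a median log2 difference of -0.43. Krt8 and Krt18 encode the keratin pair that forms the intermediate filaments of hepatocytes. Krt8 had lowest, median and highest normalized counts of 5007, 5677 and 6669.8 in SPI livers, against 6630.1, 10121 and 14685 in CAS livers, and SPI was lower in 63 of 64 liver pairs. It fell by 0.95 on the log2 scale (SE 0.16, adjusted p = 0.00253 from limma). Krt18 had 4398, 6048 and 6974 in SPI livers, against 5737, 10798 and 13007 in CAS livers, and fell by 0.92 (SE 0.15, adjusted p = 0.00140 from limma).

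The other genes that passed encode parts of the desmosome. Dsg2, the desmosomal cadherin desmoglein 2, had 1856 ± 188 normalized counts in SPI livers and 2469 ± 446 in CAS livers (SD, n = 8 each), with a log2 difference of -0.48 (SE 0.11, adjusted p = 0.0102 from limma). Pkp2, plakophilin 2, had 239 ± 36.4 in SPI livers and 359 ± 95.4 in CAS livers (SD, n = 8 each), with a log2 difference of -0.54 (SE 0.16, adjusted p = 0.0480 from limma). The Pkp2 call ended in 16 of 28 alternatives, among them leaving out any single library other than SPI 7, CAS 4, CAS 6 or CAS 7 (adjusted p up to 0.110 from limma) and blocking on replicate number (adjusted p = 0.128 from limma). In all 4 genes the lowest CAS value was in CAS 4, CAS 6 or CAS 7, at 6630.1 for Krt8, 5737 for Krt18, 1797 for Dsg2 and 202 for Pkp2.

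**Figure D5:**
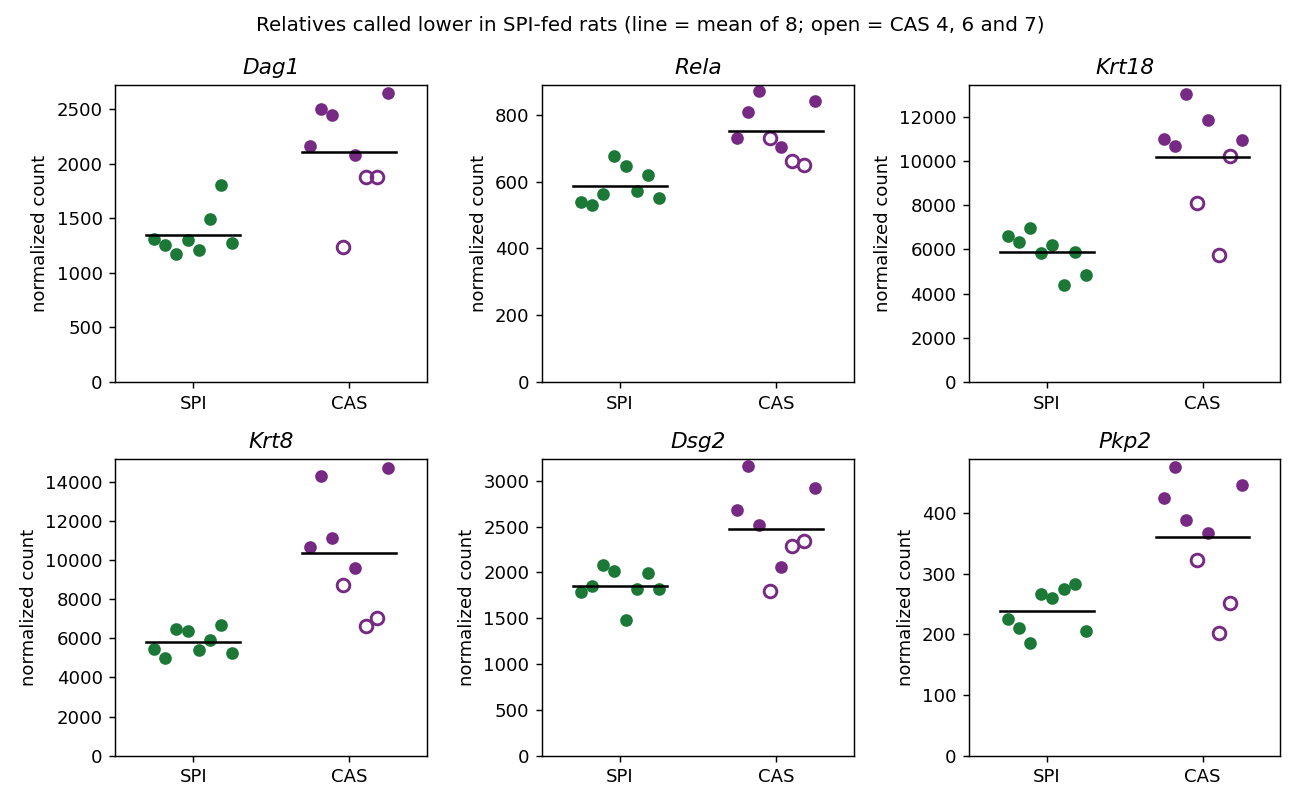
Normalized counts of the 6 relatives that passed the test in each liver, SPI left of CAS, with open points for CAS 4, CAS 6 and CAS 7 and lines for group means. The SPI livers lie lower on average in each panel, and the groups overlap in each.

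Lists of markers of other tissues and cell types were read beside the 6 genes, and they held no prostate or squamous epithelium markers. Of the neuron and glia list, 3 of 9 genes were in the table (Tubb3, Gfap and Mbp), with summed normalized counts of 23.8 to 75.4 in SPI livers and 15.9 to 41.6 in CAS livers, and none passed the test. Of the pancreas list, 2 of 9 were in the table (Cela1 and Cpa1), with sums of 1.02 to 30.2 in SPI livers and 9.09 to 64.6 in CAS livers, and Cpa1 was at 0 in all SPI libraries. Cholangiocyte markers, of which 3 of 9 were in the table, summed to 6.92 to 151 in SPI livers and 33.8 to 88.4 in CAS livers. Adipocyte markers, of which 2 of 4 were in the table, summed to 266 to 508 in SPI livers and 173 to 514 in CAS livers, nearly all from Cfd (262 to 485 in SPI livers and 169 to 511 in CAS livers). Endothelial markers, 6 of 8 in the table, summed to 2067 to 4345 in SPI livers and 899 to 3777 in CAS livers. The lowest of these sums was in CAS 7 and the highest in SPI 7. Stellate and fibroblast markers (7 of 9) summed to 3265 to 5598 in SPI livers and 3755 to 5869 in CAS livers. Kupffer cell and macrophage markers (8 of 9) summed to 3866 to 6595 and 4571 to 7821. No gene of the adipocyte, stellate, endothelial or Kupffer cell lists passed. Their part in the levels of the 6 genes was not tested.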

How the data were processed

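RNA of 16 rat livers, 1 library per rat, was sequenced after 16 weeks on SPI or CAS. The series' design text states 50-base single-end reads and the paper's methods 100-base paired-end reads. The submitters' processing notes name Rnor_6.0, FastQC and DESeq2 without versions, and the methods of the paper give CLC Genomics Workbench 8, assembly version 4 and RPM. The deposited signal values are counts of reads, scaled by the authors with a size factor for each library. Whole reads were recovered from them, 100% of them whole to within 0.05 of a read. In CAS 4, SPI 3 and SPI 5 the value of 1 read was so close to 1 that whole reads could not be told from rounded values by the step alone. The deposited log2 fold changes, score and p-value columns are the authors' own comparison, and their mean signal column is over all libraries. None of these was used.

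Genes that reached 10 in 8 or more of the 16 libraries (8004) were tested with limma, using its trend and robust options and a two-sided p with Benjamini-Hochberg adjustment, on quantile-normalized log2(value + 1). Log2 differences are on this scale, which understates those of low genes. Within-diet r used log2 values with permutation tests of 100000 resamples within diets, or exact ones in 8 livers of 1 diet. The 6 genes, the lists of relatives and the tests were chosen with earlier results of these data known. Besides the 6 genes, the text names up to 4 tested genes of each list with the smallest p and the 3 most similar genes of each. The limma test was tested on simulated data.

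The replicate numbers were used as a block in 1 alternative, because the labels' codes give each number 1 lane shared by both diets, although numbers 2 and 7 carry the same lane code, so the block is not a block of lanes. Same-numbered libraries correlated at -0.0950 to 0.0682, and 0 of 8 were closest to their own number. No library was a copy of another (chi-square per gene at least 22.6). The alternatives were other scalings, a pseudocount of 0.5 or 8, the filter raised to 50 or dropped, edgeR, DESeq2, the block, library weights, and leaving out libraries. Depth bears on counting error only. R 4.3.3, limma 3.58.1, edgeR 4.0.16, DESeq2 1.42.0 and Python 3.11.15 with numpy 2.4.6 were used.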

Additional observations from a re-analysis of the deposited data

Results flagged for a closer look

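Of 12 groups of 8 livers (6 genes in 2 diets), 2 held a liver far from the others by Dixon's test, with a gap over the range above its 95% critical value, and chance flags about 1 in 20 groups. Parm1 in SPI 7 had a normalized count of 35.7, against 0 to 14.1 in the other 7 SPI livers. Its gap was 0.607 of the range. Magee1 in CAS 3 had a normalized count of 239, against 41.7 to 117 in the other 7 CAS livers. Its gap was 0.617 of the range.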

How the results depend on the processing

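The 6 genes kept their direction in all 28 alternatives (27 for Magee1, which is absent from the filter at 50), with log2 differences of 2.57 to 3.57 for Nptx2, 1.23 to 1.56 for Resp18, -5.79 to -3.69 for Parm1, -2.21 to -1.48 for Magee1, -2.16 to -1.35 for Hivep2 and -2.30 to -1.44 for Ppl. The 158 genes higher and 232 lower in SPI livers became 45 and 67 without the libraries numbered 2 and 8, 369 and 437 without CAS 4, CAS 6 and CAS 7, 97 and 149 with the replicate block, and 308 and 361 with DESeq2. Upper-quartile scaling gave 256 higher and 208 lower, 55.2% higher in place of 40.5%. Leaving out 1 library gave 98 to 202 higher and 135 to 287 lower. The higher count fell by over 1.5 times without SPI 6 (103), CAS 2 (100), CAS 3 (100) or CAS 5 (98), and the lower count without SPI 3 (152), CAS 1 (152), CAS 2 (135), CAS 3 (142) or CAS 5 (148). The 6 relatives that passed became 2 without numbers 2 and 8 (Krt8 and Krt18) and 4 to 7 without 1 library. Pairs that passed within diets were 4, and 2 with a pseudocount of 0.5 or the filter at 50, 0 without numbers 2 and 8, 0 without CAS 4, CAS 6 and CAS 7, 9 with the replicate block, 0 by Spearman's rho, 0 in SPI livers alone, 6 in CAS livers alone and 0 to 7 without 1 library. On quantile-normalized values, genes without overlap were 4, and 4 to 6 without 1 library (5 without SPI 7) and 6 without CAS 4, CAS 6 and CAS 7. The cause of these changes was not tested. Of 1055 results for single relatives and similar genes, 35 lost and 24 gained the threshold, and 0 changed direction past it. Among the relatives and similar genes, the block ended the calls of Pkp2, Rela and Rras and no other. The calls of Lbp and Fgg were not followed through the alternatives. Low depth limits Parm1 (0 to 35 reads), Magee1 (12 to 31) and Hivep2 (7 to 76) in SPI libraries, and Nptx2 (18 to 81) in CAS libraries.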
